A study of Mus musculus with 6 samples.

Results

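The VEGF family was followed through 10 genes in mouse tibialis anterior (TA) muscle, a hindlimb muscle of fast fibres, at day 3 after cardiotoxin (CTX) injury and in uninjured muscle. The members were chosen by name as the 5 ligands Vegfa, Vegfb, Vegfc, Figf (now Vegfd) and Pgf, the 3 receptors Flt1, Kdr and Flt4, and the 2 neuropilin co-receptors Nrp1 and Nrp2. They are 10 of the 26431 genes listed. All 10 were among the 14446 genes with a mean RPKM (reads per transcript, divided by its length and by the library total) of at least 0.5 over the 6 libraries, but Pgf, at a mean of 0.212 RPKM in uninjured muscle, reached that level only through the day 3 libraries. Whole-muscle RNA was sequenced from 3 C57BL/6 mice at day 3 and from 3 uninjured C57BL/6 mice, labelled female and aged 8 to 10 weeks. The paper's general animal methods instead name males unless stated otherwise, and its RNA sequencing methods give no sex. The day 3 muscles had received about 50 µl of 10 µM CTX, a snake venom toxin from Naja mossambica mossambica that destroys muscle fibres, whereas the uninjured mice were untreated, so that CTX and the injection itself cannot be told apart here. The libraries held 34202861 to 36129090 mapped reads at day 3 and 38737746 to 43062684 in uninjured muscle.

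VEGF ligands are secreted dimers that act on tyrosine kinase receptors of blood and lymphatic endothelial cells. VEGF-A, the main driver of blood vessel growth, signals through KDR (VEGFR2) and binds more tightly to FLT1 (VEGFR1), which largely acts as a trap for it; VEGF-B and PlGF, the product of Pgf, bind FLT1, and VEGF-C and VEGF-D bind FLT4 (VEGFR3), the receptor of lymphatic vessels. Neuropilins present VEGFs to these receptors and are also receptors for class 3 semaphorins. In adult skeletal muscle VEGF-A is made largely by the fibres themselves and maintains the capillary bed.

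The 250 bases upstream of the RefSeq start of all 10 members were available (RefSeq, GRCm38.p6), and 3 of them are printed because these genes show opposed directions on the deposited scale, described below. They are Vegfa (chr17:46032378-46032627, minus strand) and Vegfb (chr19:6987652-6987901, minus strand), which were lower at day 3, and Nrp2 (chr1:62703067-62703316, plus strand), which was higher on that scale. Capitals mark GC boxes, GGGCGG or its reverse complement CCGCCC, and the last base printed is the base just before the annotated start of the gene (in Pgf, Flt1, Kdr and Nrp1 the window lies inside the annotated span of the gene, and it is not printed).
Vegfa: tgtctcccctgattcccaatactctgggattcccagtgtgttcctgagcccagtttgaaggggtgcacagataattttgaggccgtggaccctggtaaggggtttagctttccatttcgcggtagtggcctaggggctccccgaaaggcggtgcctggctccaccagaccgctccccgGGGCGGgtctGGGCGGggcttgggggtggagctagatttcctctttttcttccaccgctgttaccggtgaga
Vegfb: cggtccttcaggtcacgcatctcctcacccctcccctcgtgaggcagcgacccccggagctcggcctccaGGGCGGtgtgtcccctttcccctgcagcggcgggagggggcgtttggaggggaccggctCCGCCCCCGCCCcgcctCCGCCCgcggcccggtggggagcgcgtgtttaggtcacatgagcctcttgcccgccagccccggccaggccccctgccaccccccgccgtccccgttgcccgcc
Nrp2: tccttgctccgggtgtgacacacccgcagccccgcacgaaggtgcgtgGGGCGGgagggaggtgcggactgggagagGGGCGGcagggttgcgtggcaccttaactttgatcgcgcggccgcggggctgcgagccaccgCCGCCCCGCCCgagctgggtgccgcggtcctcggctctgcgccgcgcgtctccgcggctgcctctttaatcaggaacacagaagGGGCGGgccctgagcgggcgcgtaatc

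The core of the hypoxia response element, ACGTG or CACGT, was in none of the 10 member windows and in 16.5% of the 27025 promoter windows of the same length, so that no such letters are capitalised. Sites outside these 250 bases were not searched, so a member may hold the element elsewhere. GC boxes numbered 2 in Vegfa, 4 in Vegfb and 5 in Nrp2, and were found in 9 of the 10 members (1 to 5 each), against 33.0% of all windows. Figf, the member without a GC box, had a GC content of 42.4%, and the other 9 had 59.2% (Vegfa) to 76.4% (Vegfb). The AP-1 motif TGANTCA was in none of the 10 windows and in 6.85% of all windows, and the E-box CANNTG, bound by MyoD and myogenin among others, was in 5 of the 10 and in 66.1% of all windows (both strands searched). These matches describe letters only and were not tested, and GC boxes stand in the windows of Vegfa and Vegfb, which were lower at day 3, as in that of Nrp2, which was higher on the deposited scale.

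Vegfa and Vegfb, the most abundant ligands of uninjured muscle, fell, and Figf, Pgf, Nrp1 and Nrp2 rose on the deposited scale. Genes were called at a Benjamini-Hochberg adjusted p under 0.05 in limma and at least 2-fold, on the log2(RPKM + 0.1) scale. By this rule 4 of the 10 members were higher, against 60.5% of all tested genes, and 3 were lower (Vegfa, Vegfb and Flt1), against 7.96%. Vegfc, Kdr and Flt4 were not called. The libraries differ strongly in composition: the median over the 14446 tested genes was a log2 fold change of 1.35, so that 6 members (Vegfa, Vegfb, Vegfc, Flt1, Kdr and Flt4) lay below it and 4 (Figf, Pgf, Nrp1 and Nrp2) above it. In RNA of whole muscle, fewer cells of a type and less RNA per cell cannot be told apart.

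**Figure D1:**
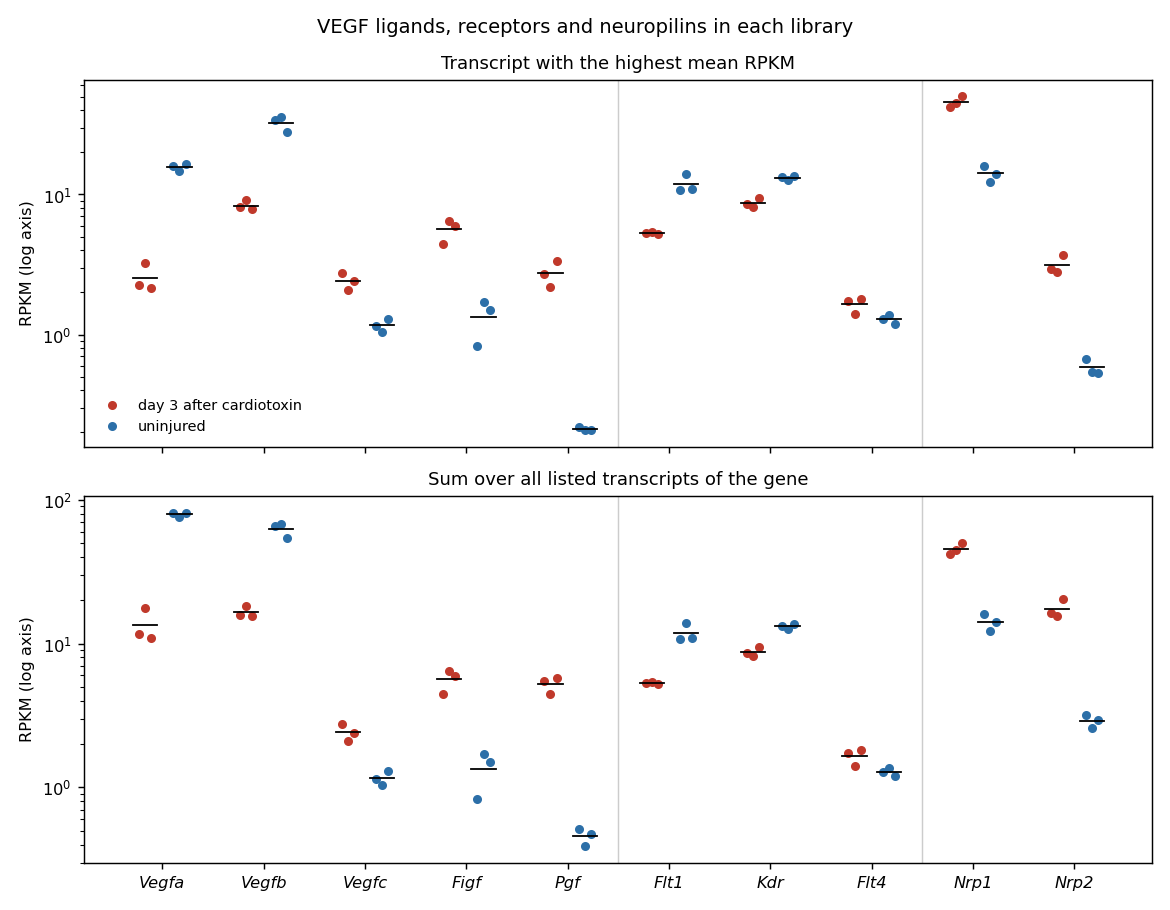
RPKM of the 10 members in each library on a log axis, with day 3 (red) left of uninjured (blue) and lines at the group means (n = 3 each); the upper panel shows the transcript of highest mean and the lower panel the sum over all listed transcripts. In both panels the red and blue points of each member are separated, with Vegfa, Vegfb, Flt1 and Kdr lower and the other 6 higher at day 3. Such separation was not counted over all tested genes, of which 60.5% were called higher and 7.96% lower.

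Among the ligands, Vegfa showed the largest fall. Its transcript of highest mean level had 2.25, 3.24 and 2.17 RPKM in day 3 muscles, against 15.9, 14.7 and 16.5 RPKM in uninjured muscles. The groups were far apart, and the second day 3 library was the highest of its group. Vegfa averaged 2.55 ± 0.597 RPKM at day 3 and 15.7 ± 0.920 RPKM in uninjured muscle (SD, n = 3 each), a log2 fold change of −2.60 (SE 0.15, limma adjusted p = 1.93e-06), lower than that of all but 1.95% of tested genes. All 6 listed Vegfa transcripts were lower at day 3, with day 3 to uninjured ratios of 0.162 to 0.185. Their sum was 11.7, 17.8 and 10.9 RPKM at day 3 and 81.1, 75.8 and 81.5 RPKM in uninjured muscle. The splice forms of Vegfa share most of their sequence, so that the reads given to each of them are uncertain, whereas their sum is less so.

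Vegfb, which encodes a FLT1 ligand prominent in heart and muscle, fell as well. It had 8.09, 9.08 and 7.84 RPKM at day 3, against 34.0, 35.5 and 28.1 RPKM in uninjured muscles. No day 3 library came near the lowest uninjured library. The log2 fold change was −1.95 (SE 0.11, limma adjusted p = 1.35e-06). Adult fast-fibre genes moved in the same direction: all 8 on the list (Ckm, Acta1, Myh4, Tnnt3, Pvalb, Mylpf, Atp2a1 and Mb) were called lower at day 3, against 7.96% of all tested genes. Their summed level was 5965, 8332 and 1864 RPKM in the 3 day 3 libraries, against 44947 to 48504 RPKM in uninjured muscle. The second day 3 library was thus highest for Vegfa, Vegfb and the fibre genes, while the third, with the lowest fibre sum, had 2.17 RPKM of Vegfa, close to the 2.25 RPKM of the first. The part of fibre loss in the fall of Vegfa and Vegfb was not tested.

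Pgf, which encodes the FLT1 ligand PlGF and is little expressed in healthy adult tissues, rose most of the members. It had 2.72, 2.20 and 3.38 RPKM at day 3, against 0.218, 0.208 and 0.210 RPKM in uninjured muscles. The uninjured libraries lay close together at the foot of the range and the day 3 libraries well above them. The log2 fold change was 3.18 (SE 0.17, limma adjusted p = 1.06e-06), higher than that of 85.8% of tested genes. Its uninjured level rested on few reads, 22 to 31 per library over the 2 listed transcripts, against 225 to 304 at day 3, and the 2 transcripts had day 3 to uninjured ratios of 9.97 and 13.1.

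Figf, which encodes VEGF-D, a FLT4 ligand, rose on the deposited scale but more unevenly. Its level was 4.46, 6.49 and 5.96 RPKM at day 3 and 0.827, 1.71 and 1.50 RPKM in uninjured muscle, from 287 to 434 and 67 to 126 reads. The first library of each group was the lowest, and the groups did not overlap. The log2 fold change was 2.03 (SE 0.27, limma adjusted p = 1.89e-04), with the largest SE among the members. Vegfc, the other FLT4 ligand and the main one in lymphatic growth, had 2.75, 2.10 and 2.40 RPKM at day 3, against 1.15, 1.05 and 1.29 RPKM in uninjured muscle, from 140 to 177 and 77 to 94 reads. Its groups did not overlap either, yet its log2 fold change of 0.99 (SE 0.13, adjusted p = 2.03e-04) lay just under the 2-fold line. Vegfc was called without the second day 3 library (1.09) or without the third uninjured library (1.06), and its call therefore rests on which library is counted.

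All 3 receptors were below the median change of all genes. Flt1 had 5.33, 5.43 and 5.21 RPKM at day 3, against 10.7, 13.9 and 11.0 RPKM in uninjured muscles. The day 3 libraries were nearly equal, while the second uninjured library was the highest of its group. The log2 fold change was −1.13 (SE 0.11, limma adjusted p = 3.05e-05). A soluble form of FLT1 ends early in the transcript and has no row of its own among the values used here, so the membrane and soluble forms were not separated. Kdr, the main signalling receptor of blood endothelium, had 8.59, 8.17 and 9.45 RPKM at day 3, against 13.3, 12.6 and 13.6 RPKM in uninjured muscle. Although the groups did not overlap, the log2 fold change of −0.59 (SE 0.08, adjusted p = 1.67e-04) was under 2-fold, and Kdr was not called.

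Flt4, the lowest of the 3 receptors, had 1.74, 1.41 and 1.81 RPKM at day 3 and 1.29, 1.37 and 1.19 RPKM in uninjured muscle. Its groups were separated by a small gap, between 1.41 RPKM at day 3 and 1.37 RPKM in uninjured muscle. The log2 fold change was 0.33 (SE 0.12, limma adjusted p = 0.0344), and leaving out a library gave adjusted p of up to 0.108 (without the third uninjured library). It was read from 293 to 381 reads per library at day 3 and 270 to 324 in uninjured muscle.

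The neuropilins were both called higher on the deposited scale. Nrp1, a co-receptor of KDR that is also made by macrophages, fibroblasts and neurons, had 42.1, 45.0 and 50.1 RPKM at day 3, against 16.0, 12.3 and 14.1 RPKM in uninjured muscles. It was the most abundant member in every day 3 library. The log2 fold change was 1.69 (SE 0.11, limma adjusted p = 3.55e-06), but it turned negative (−0.36) when libraries were scaled to ribosomal protein genes. Nrp2, a co-receptor of FLT4 in lymphatic endothelium, had 2.92, 2.81 and 3.68 RPKM in the transcript of highest mean at day 3, against 0.670, 0.544 and 0.534 RPKM in uninjured muscle. Its log2 fold change was 2.24 (SE 0.14, adjusted p = 2.93e-06). All 6 listed Nrp2 transcripts were higher at day 3, with ratios of 5.38 to 7.08, and their sum was 16.3, 15.5 and 20.3 RPKM at day 3 and 3.16, 2.59 and 2.96 RPKM in uninjured muscle. Summed over rows, the log2 fold change of Nrp2 was 2.53.

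Because the median gene itself differed between the groups, each fold change was also read under 4 other scalings of the libraries, which moved the median of all genes to 0.94 (ERCC spike-ins, control RNAs added in the laboratory), 0.06 (median of ratios), −0.03 (quantiles) and −0.63 (83 ribosomal protein genes). Vegfa, Vegfb and Flt1 were called lower and Pgf higher under all 4. Vegfa ranged between −4.60 and −3.02 and Pgf between 1.43 and 2.82 over these scalings. Kdr, not called on the deposited scale, was called lower under all 4, at −1.01 (ERCC) to −2.63 (ribosomal). Nrp2 was called under ERCC (1.85) and median-of-ratios scaling (1.01) but not under quantile (0.53) or ribosomal scaling (0.34). Figf and Nrp1 were called under ERCC scaling alone among the 4, at 1.62 and 1.27. Flt4 was negative under all 4 (−0.067 to −1.59) and Vegfc under 3 (−0.27 to −0.95), so that neither has a direction that holds across scalings. The background shifted as well: of all tested genes, 48.1% were called higher and 11.1% lower under ERCC scaling (4 members higher and 4 lower), 26.3% and 22.5% under median-of-ratios scaling (2 and 4 members), 24.6% and 22.9% under quantile scaling (1 and 5) and 16.8% and 39.1% under ribosomal scaling (1 and 5).

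**Figure D2:**
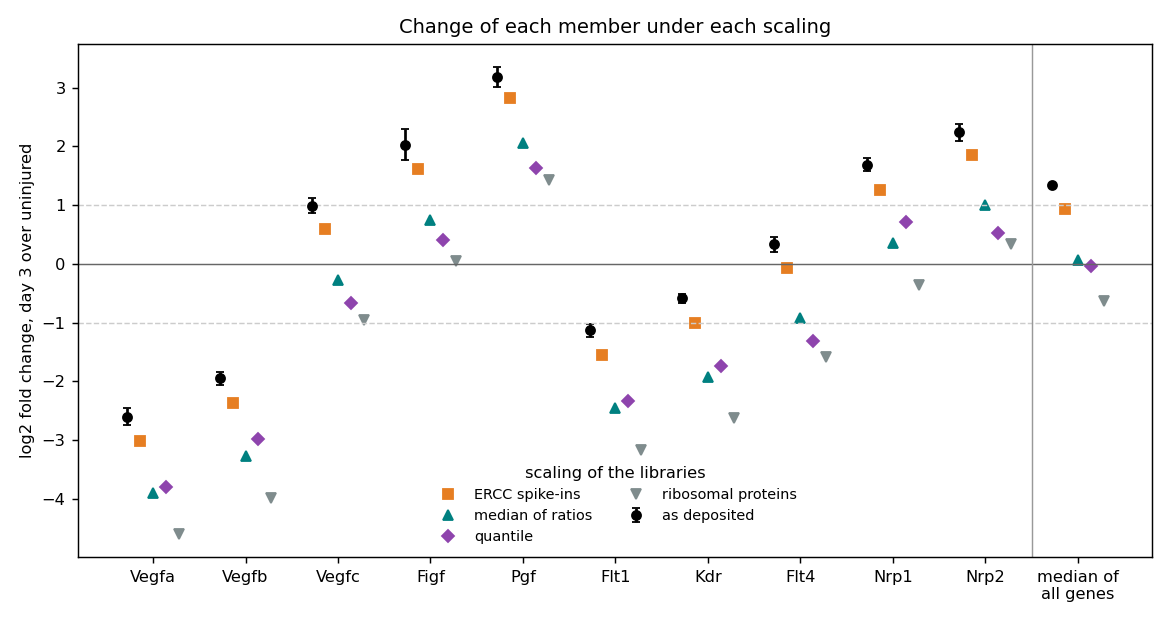
Log2 fold change of each member, day 3 over uninjured, as deposited (black, with SE) and under 4 other scalings (coloured symbols), with the median of all tested genes at the right and dashed lines at 2-fold. Vegfa, Vegfb and Flt1 stay below the lower dashed line and Pgf above the upper one throughout, whereas Vegfc, Flt4 and Nrp1 cross 0.

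Summed over all transcripts of each gene, the order of the members differed between the groups. At day 3 Nrp1 led with a mean of 45.7 RPKM, followed by Nrp2 (17.4), Vegfb (16.5) and Vegfa (13.5), whose neighbouring ranges overlapped. Below them came Kdr at 8.74 RPKM, then Figf (5.64), Flt1 (5.32) and Pgf (5.23) with overlapping ranges, Vegfc at 2.42 RPKM and Flt4 at 1.65 RPKM. In uninjured muscle Vegfa led at 79.5 RPKM and Vegfb followed at 62.6 RPKM without overlap. Nrp1 (14.1), Kdr (13.2) and Flt1 (11.9) overlapped with their neighbours, Nrp2 stood alone at 2.90 RPKM, Figf (1.34), Flt4 (1.29) and Vegfc (1.16) overlapped, and Pgf was last at 0.459 RPKM.

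By role, the 5 ligands together came to 40.1, 48.9 and 40.6 RPKM at day 3, against 149, 147 and 139 RPKM in uninjured muscles. The 3 receptors added up to 15.7, 15.0 and 16.5 RPKM at day 3 and 25.3, 27.9 and 25.7 RPKM in uninjured muscle. The neuropilins came to 58.4, 60.5 and 70.4 RPKM at day 3, against 19.1, 14.9 and 17.1 RPKM in uninjured muscle. No sum overlapped between the groups, but overlap was not counted for sums of other genes. The day 3 to uninjured ratios of the means were 0.298 for ligands, 0.597 for receptors and 3.70 for neuropilins on the deposited scale. The make-up of each role, which does not move with the scaling of a library by a single factor, differed too. Vegfa and Vegfb made up on average 30.8% and 38.2% of ligand RPKM at day 3, against 54.9% and 43.1% in uninjured muscle. Figf, Pgf and Vegfc took 13.0%, 12.3% and 5.68% at day 3, against 0.932%, 0.317% and 0.804% in uninjured muscle. Among the receptors Flt4 took 10.5% at day 3 and 4.88% in uninjured muscle, and Nrp2 took 27.4% of the neuropilin sum at day 3 and 17.1% in uninjured muscle.

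**Figure D3:**
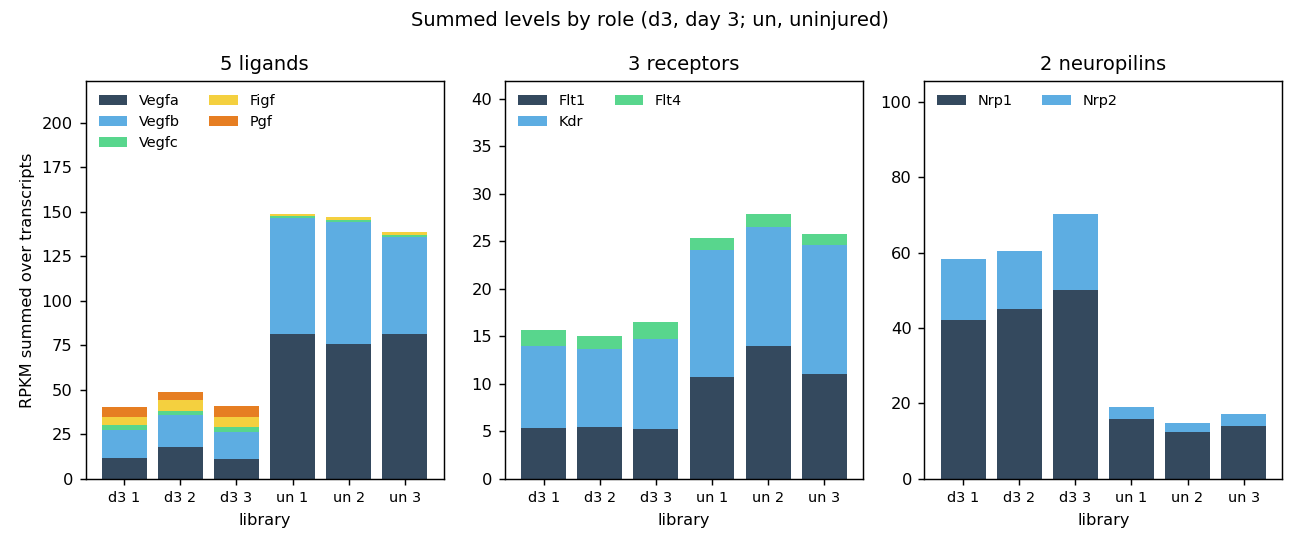
RPKM summed over transcripts in each library, stacked by gene for the ligands, receptors and neuropilins, with the 3 day 3 libraries (d3) left of the 3 uninjured ones (un); each panel has its own axis from 0. The ligand and receptor bars are shorter and the neuropilin bars taller at day 3, and Figf and Pgf are visible shares of the ligands only in the day 3 bars.

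Between members, 8 log2 ratios were formed within each library (RPKM + 0.1, transcript of highest mean), since the scale factor of a library drops out of such a ratio but for the pseudocount. The Pgf to Vegfa ratio was 0.27, −0.54 and 0.62 in day 3 libraries, against −5.65, −5.59 and −5.75 in uninjured libraries. The difference of 5.78 on the log2 scale was the largest of the 8. The single transcripts used were near parity at day 3 and far apart in uninjured muscle. The genes themselves were not at parity at day 3, since the reads of Vegfa are split over 6 rows and those of Pgf over 2. Summed over transcripts, Vegfa was at 10.9 to 17.8 RPKM and Pgf at 4.43 to 5.76 RPKM in day 3 libraries. From these sums the difference of the log2 ratio between the groups was 5.84. The Vegfc to Vegfa ratio differed by 3.59 and the Nrp1 to Kdr ratio by 2.28. Nrp1 to Kdr was 2.28, 2.45 and 2.39 at day 3 and 0.26, −0.03 and 0.05 in uninjured muscle.

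The remaining ratios differed less. Figf to Vegfc differed by 1.04, Flt4 to Kdr by 0.92, Vegfb to Vegfa by 0.65, Nrp2 to Nrp1 by 0.55 and Flt1 to Kdr by −0.54. Figf to Vegfc came closest to overlap, with 0.68 as the lowest day 3 and 0.66 as the highest uninjured value. With the pseudocount of 0.1, none of the 8 ratios overlapped between the groups. Each had an exact two-sided permutation p of 0.1 (0.1 after Benjamini-Hochberg adjustment over the 8), the smallest that 3 against 3 libraries allow. How often ratios of other genes separate the groups was not counted. The Nrp2 to Nrp1 difference turned to −0.25 with a pseudocount of 1. This is above the uninjured mean of the Nrp2 transcript used (0.582 RPKM), 1 of 6 listed, but not above their sum of 2.90 RPKM. With a pseudocount of 0.01 the Figf to Vegfc ratios of the groups overlapped (difference 1.06, exact two-sided permutation p = 0.2).

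**Figure D4:**
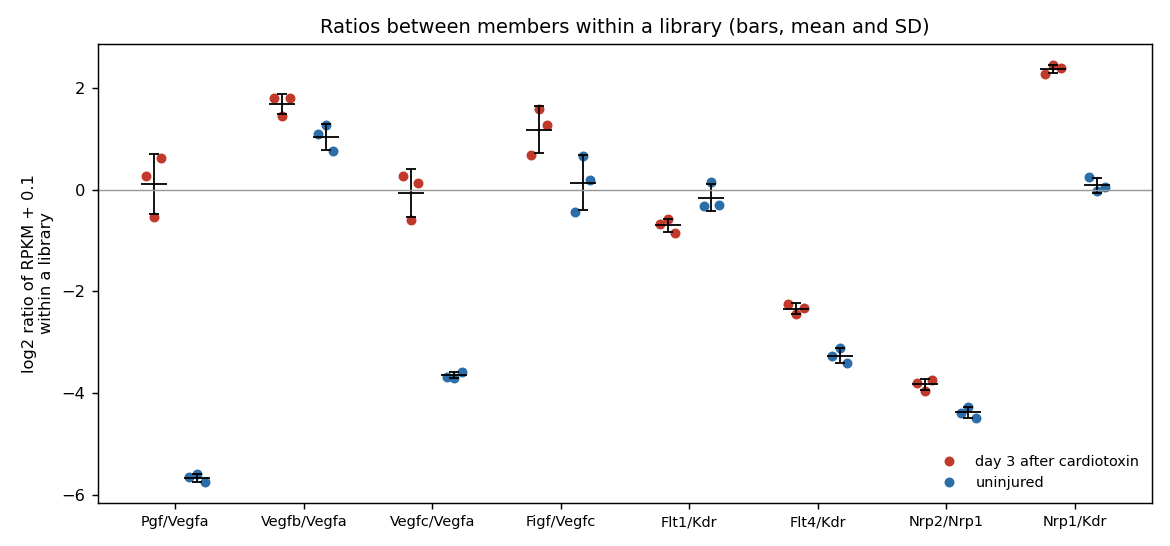
Log2 ratios between members within each library, day 3 (red) left of uninjured (blue), with mean and SD (n = 3 each). The Pgf/Vegfa ratio is −0.54 to 0.62 at day 3 and −5.75 to −5.59 in uninjured muscle, and the groups are separated for every ratio, narrowly for Figf/Vegfc.

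The receptors were set beside 20 blood endothelial markers, in a comparison added after the values were seen. Of these, 3 were called higher (Icam2, Clec14a and Sox18), 1 lower (Gpr116) and 16 were not called, against 60.5% higher and 7.96% lower of all tested genes. Their median log2 fold change was 0.34, below the 1.35 of all genes. Under median-of-ratios scaling none was higher and 10 were lower, against 26.3% and 22.5% of all genes, and the median was −0.99. Their summed level was 205 to 215 RPKM at day 3 and 158 to 180 RPKM in uninjured muscle. Cdh5, the endothelial cadherin and most abundant of them, had a log2 fold change of 0.34 (36.4 ± 2.36 RPKM at day 3, 28.9 ± 2.71 RPKM in uninjured muscle). Relative to the mean log2 level of the 20 markers in the same library, Flt1 was −0.71, −0.65 and −0.72 at day 3, against 0.59, 1.16 and 0.80 in uninjured muscle. Kdr was −0.03, −0.06 and 0.13 at day 3, against 0.91, 1.02 and 1.11 in uninjured muscle. The differences were −1.54 for Flt1 and −1.0 for Kdr, both without overlap. For Flt4 the difference was −0.08 and the groups overlapped.

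Markers of other cells are given beside the shares of all tested genes called higher (60.5%) and lower (7.96%). These shares were 26.3% and 22.5% under median-of-ratios scaling, and 16.8% and 39.1% under ribosomal scaling. All 12 macrophage and monocyte markers were higher at day 3, with a median log2 fold change of 6.47 and a summed level of 4619 to 6466 RPKM, against 34.6 to 52.2 RPKM in uninjured muscle. Of 7 fibroblast markers, 6 were higher (median 2.57, summed level 1637 to 1767 RPKM at day 3, 170 to 262 RPKM in uninjured muscle), and all 6 markers of myoblasts and new fibres were higher; under ribosomal scaling 11 macrophage, 2 fibroblast and 4 myoblast markers were higher and 1 fibroblast marker was lower. The 3 measured lymphatic markers were higher as well: Pdpn at 4.19, Prox1 at 2.56 and Lyve1 at 2.51 on the log2 scale, with a summed level of 47.6 to 61.0 RPKM at day 3, against 3.79 to 4.35 RPKM in uninjured muscle (1 of the 3 was called higher under ribosomal scaling). Pdpn and Lyve1 are also made by stromal cells and macrophages. Mmrn1 and Reln were under the level filter and Ccl21a was not analysed here. Nrp1, Nrp2, Pgf and Figf rose with these lists on the deposited scale, and the part of each cell type in their levels was not tested. All 4 measured neutrophil markers were higher. Of these, Csf3r and Mmp8 averaged under 0.5 RPKM in uninjured muscle and passed the level filter only through day 3, as did Prox1, Itgam, Tmem8c, Mbp and Ngfr. Of 11 pericyte and smooth muscle markers, 5 were higher (Acta2 at 3.06, Mcam at 1.97) and 2 lower (Abcc9 at −2.17, Kcnj8 at −1.50). Of 6 Schwann cell and nerve markers, 3 were higher. In both of these lists the share called higher was below the 60.5% of all genes, and the pericyte share called lower was above the 7.96%. Under median-of-ratios scaling 1 pericyte and smooth muscle marker was higher and 5 were lower, and 1 Schwann cell and nerve marker was higher and 2 lower, so that neither list has a direction that holds across scalings.

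The lists of pathway genes are given beside the shares of all tested genes called higher (60.5%) and lower (7.96%). Of 14 measured genes that process VEGFs or hold them in the matrix, 13 were higher and none lower, with a median log2 fold change of 2.88, against 1.35 for all genes; under median-of-ratios scaling 9 were higher and 1 lower, against 26.3% and 22.5% of all genes. Of the 13, 4 had to be higher to be measured: Ccbe1, Adamts14, Pcsk5 and Mmp3 averaged under 0.5 RPKM in uninjured muscle and passed the level filter only through day 3, while Adamts3 did not pass it. With no filter, 13 of all 15 were higher and none lower. The median of all 26431 genes was then 0.53, and the shares of them called were not counted. Ctsd, the protease cathepsin D and the most abundant, had 1607 ± 326 RPKM at day 3 and 226 ± 2.00 RPKM in uninjured muscle (log2 fold change 2.81). Thbs1, a matrix protein that binds VEGF and inhibits angiogenesis, showed the largest change on the list at 5.74 (102 ± 18.4 RPKM at day 3, 1.80 ± 0.194 RPKM in uninjured muscle). Adamts14, a procollagen protease related to the VEGF-C activator Adamts3, rose by 4.97. Ccbe1, the cofactor needed to activate VEGF-C, was at 6.72 ± 0.627 RPKM at day 3 and 0.180 ± 0.0211 RPKM in uninjured muscle (log2 fold change 4.60). Adamts1 was not called, at −0.07.

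Oxygen-sensing and hypoxia-induced genes, which include the best known regulators and companions of Vegfa, were split. Of 8 measured oxygen-sensing genes, 2 were higher and 3 lower, against 60.5% and 7.96% of all genes. Under median-of-ratios scaling 1 was higher and 5 lower, against 26.3% and 22.5% of all genes. Hif1a, which encodes a hypoxia-inducible transcription factor, was at 43.2 ± 1.57 RPKM at day 3 and 6.54 ± 0.594 RPKM in uninjured muscle (log2 fold change 2.71), while Epas1, encoding the related HIF-2α, had a log2 fold change of −1.41. Egln1, the main prolyl hydroxylase that marks HIF for destruction, was at 16.8 ± 2.29 RPKM at day 3 and 79.3 ± 5.52 RPKM in uninjured muscle (−2.24), Hif1an, another HIF hydroxylase, at −1.30 and Vhl, the ubiquitin ligase subunit that binds hydroxylated HIF, at 2.30. Of 19 measured hypoxia-induced genes, 9 were higher and 3 lower on the deposited scale, but 1 was higher and 8 lower under median-of-ratios scaling, so the list has no direction that holds across scalings. Car9 passed the level filter only through day 3. Plod2 (3.46) and the glucose transporter Slc2a1 (2.23) were highest among those called, while Vldlr (−2.94) and the mitophagy receptor Bnip3 (−1.39), the most abundant of the list, fell with Vegfa.

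Among 9 measured class 3 semaphorins and plexins, the other ligands and partners of neuropilins, 5 were higher and none lower, with a median of 1.74, a share near the 60.5% of all genes called higher. Sema3d and Plxna3 passed the level filter only through day 3. Plxnd1, an endothelial plexin and the most abundant, had a log2 fold change of 2.30 (39.6 ± 6.00 RPKM at day 3, 8.07 ± 1.79 RPKM in uninjured muscle), Plxna3 of 3.85 and Plxna1 of 3.58. Sema3d (2.69) and Sema3f (1.74), a NRP2 ligand, were higher too. Sema3c, at 6.39, 11.7 and 4.32 RPKM at day 3 and 12.9, 12.4 and 13.8 RPKM in uninjured muscle, was not called (−0.91). Under median-of-ratios scaling 3 of the 9 were higher and 2 lower (26.3% and 22.5% of all genes), and under ribosomal scaling 2 were higher and 4 lower (16.8% and 39.1% of all genes).

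Downstream of the receptors, 12 of 22 measured signalling genes were higher and 1 lower, shares near the 60.5% and 7.96% of all genes, with a median of 1.07, below the 1.35 of all genes. Prkcb rose by 4.51 (5.63 RPKM at day 3, 0.154 RPKM in uninjured muscle) and, like Src, passed the level filter only through day 3, and Vav2 rose by 3.48. Prkca had −1.23, and Map2k2, the most abundant, was not called at 0.22. Of 13 measured tip cell and VEGF-responsive endothelial genes, 7 were higher and 1 lower (median 1.37), close to the background of 60.5% higher, 7.96% lower and a median of 1.35. Esm1 and Egr3 passed the level filter only through day 3. Apln, the apelin ligand of sprouting tip cells, was at 9.74 ± 1.61 RPKM at day 3 and 0.990 ± 0.328 RPKM in uninjured muscle (log2 fold change 3.21), and Nid2 was at 2.74 and Esm1 at 1.41. Nr4a1, an immediate early gene, had −2.44, and Dll4, the tip cell Notch ligand, was not called at −0.22 (2.52 ± 0.555 RPKM at day 3, 2.91 ± 0.200 RPKM in uninjured muscle). Under median-of-ratios scaling these lists had 7 higher and 5 lower, and 3 higher and 3 lower genes, against 26.3% and 22.5% of all genes.

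Angiopoietin and PDGF genes were counted as other vascular growth factor families. Of 5 measured angiopoietin and TIE genes, Angpt2, which loosens vessels for sprouting, was the only one called, at 2.17 (6.49 ± 0.383 RPKM at day 3, 1.4 ± 0.423 RPKM in uninjured muscle). Its receptor gene Tek (−0.14), the related receptor gene Tie1 (0.17) and its rival ligand Angpt1 (−0.42) were not called. Under median-of-ratios scaling none of the 5 was higher and 4 were lower, against 26.3% and 22.5% of all genes. All 6 PDGF ligands and receptors were measured, and 4 were higher and none lower, a share near the 60.5% of all genes, with a median of 1.22, below the 1.35 of all genes. Under ribosomal scaling 1 was higher and 2 were lower, against 16.8% and 39.1% of all genes. Pdgfc, whose ligand structure is close to that of the VEGFs and which passed the level filter only through day 3, was at 3.69 and Pdgfra, a receptor of fibro-adipogenic progenitors, at 2.93, whereas Pdgfa, the most abundant, was not called at 0.98.

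**Figure D5:**
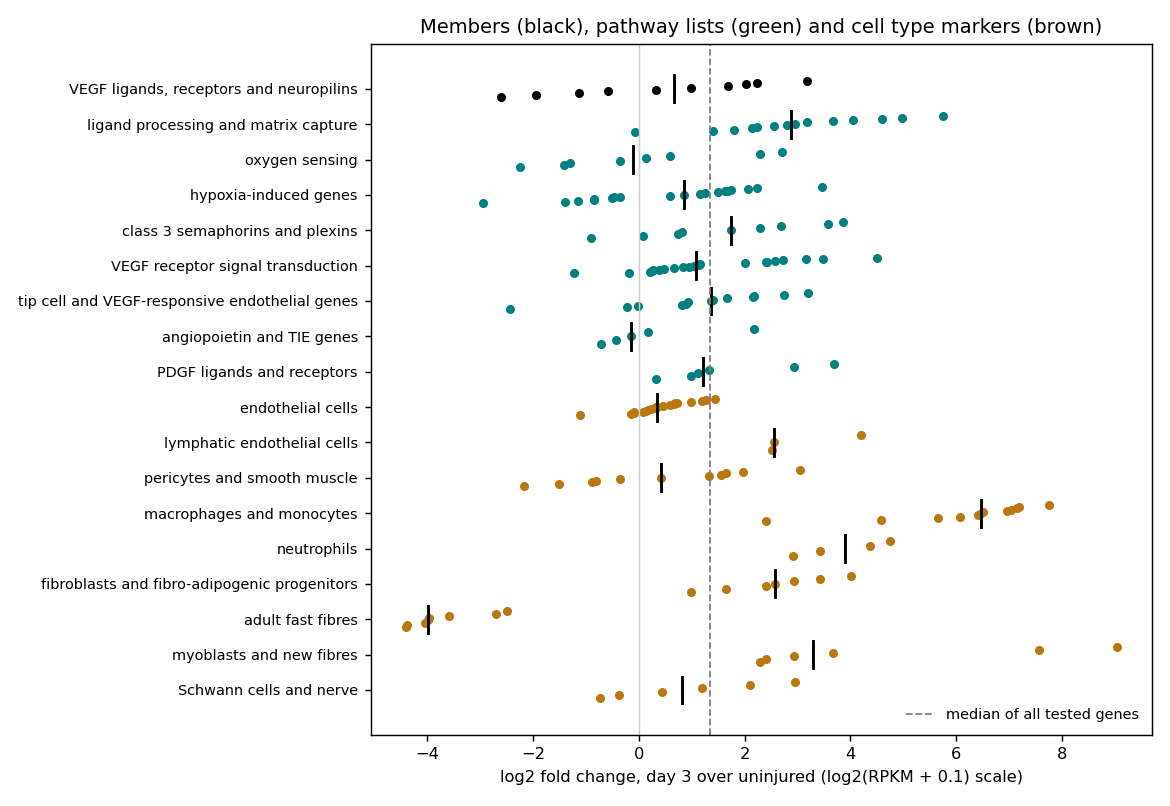
Log2 fold change, day 3 over uninjured, of each measured gene of the VEGF family (black), the pathway lists (green) and the cell type markers (brown), with a black bar at each list's median and a dashed line at the median of all tested genes (1.35). The VEGF family spans −2.60 to 3.18, the ligand processing genes lie mostly to the right of the dashed line, and the endothelial markers lie mostly to its left.

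The genes whose log2 levels followed each member most closely over the 6 libraries were found among all tested genes, as a description. They were Gm5177 for Vegfa, Atp5sl for Vegfb, Ror1 for Vegfc, AK010878 for Figf, Sap30bp for Pgf, Fbxw5 for Flt1, Tmem42 for Kdr, Gm20071 for Flt4, Fam195b for Nrp1 and Ring1 for Nrp2. Pearson r was at least 0.99 in each case. The separation of the 2 groups is shared by all these points, and no member was the closest gene of another.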

How the data were processed

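Total RNA (1 µg) of whole TA muscle was made into libraries and read as 50 nt single reads. Per the labels and methods, the authors aligned reads to RefSeq mouse transcripts of 2013 with BWA; the submitters' processing notes also name CASAVA 1.4 and SAMtools 0.1.19. The deposited table gives RPKM per transcript, calculated by the authors, beside the transcript length in bases, a column listed as another unit. Values above the lowest listed value (0.01) were whole reads in 100% of cases (tolerance 0.01 reads), and the reads add up to the library totals but for 366 to 868 reads, so each read was counted at a single row and genes with several transcripts are split over rows. Whether the kit kept strand is not given in the sources used here, so that overlapping antisense transcripts cannot be told apart. Rows naming no gene were the spike-ins, adapters, contaminants and a row for the mitochondrial genome. Together they held 4.06% to 4.80% of reads at day 3 and 12.4% to 13.8% in uninjured muscle and stayed out of the tests. The spike-ins alone held 1.44% to 1.64% at day 3 and 1.06% to 1.20% in uninjured muscle.

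For each symbol the row of highest mean was tested with limma 3.58.1 (trend, R 4.3.3) on log2(RPKM + 0.1) over genes with a mean of at least 0.5 RPKM, 3 libraries against 3, each from a separate mouse, with Benjamini-Hochberg adjustment over all 14446 genes. Ratios were tested by exact permutation (SciPy 1.17.1, NumPy 2.4.6, pandas 2.3.3, Python 3.11.15; figures with matplotlib 3.10.9). The limma step was tested on simulated data. The members and gene lists were chosen with earlier results of these data known. Named genes were all members, the most abundant measured gene of each list, up to 2 called higher and 2 lower of largest change, and the gene most correlated with each member, with cell type markers given mostly as counts and sums; Ccbe1, Esm1, Dll4, Tek, Sox18, Angpt1, Adamts1, Hif1an, Lyve1, Sema3c, Sema3d and Sema3f were named after their values were seen. Alternatives were other pseudocounts (0.01 and 1), filters, scalings, summed rows, voom on the recovered reads, a replicate block and each library left out.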

Additional observations from a re-analysis of the deposited data

How the results depend on the processing

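Vegfa, Vegfb, Flt1 and Pgf kept their direction and call under every alternative that tested them (the filter at a mean of 2 RPKM left out Pgf and 3 other members). Vegfc reversed to −0.27, −0.67 and −0.95 under median-of-ratios, quantile and ribosomal scaling, and Flt4 to −0.92, −1.32 and −1.59, and to −0.067 under ERCC scaling. Nrp1 reversed to −0.36 under ribosomal scaling, and the Nrp2 to Nrp1 difference to −0.25 with a pseudocount of 1. Against 4 members called higher, 2 were called with the filter at 2 RPKM (fewer members tested) and under median-of-ratios scaling, and 1 under quantile and ribosomal scaling; against 3 called lower, 5 were called under quantile and ribosomal scaling. Pathway genes called higher numbered 52, and 26, 24 and 14 under median-of-ratios, quantile and ribosomal scaling. The 52 include the pathway genes named above that passed the level filter only through day 3. Of all tested genes, 60.5% were called higher, and 26.3%, 24.6% and 16.8% under these scalings. Pathway genes called lower numbered 8, and 28, 26 and 44, where all tested genes had 7.96%, and 22.5%, 22.9% and 39.1%. The pathway counts thus shifted in the same direction as the shares of all genes. Vegfc was also called with a pseudocount of 0.01 (1.05) and by voom on recovered reads (1.05).

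Leaving out each library in turn gave 4 to 5 members called higher and 3 lower, 51 to 54 pathway genes higher and 8 to 9 lower. The median of all tested genes was then 1.33 to 1.37, but the shares of them called were not counted. Replicate numbers did not pair the libraries (correlations of deviations −0.06, 0.09 and 0.02), and with a replicate block 4 members were higher and 3 lower, the same genes as without it. Ratios from summed transcripts, an alternative chosen after seeing the data, kept the direction of all 8 differences. Among the low-level members, Pgf and Vegfc in uninjured muscle rest on under 100 reads per library and Figf on 67 to 126. This limits the precision of their fold changes.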
